A study of Mus musculus with 16 samples.

Results

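mmu-miR-103 and mmu-miR-107 (miR-103 and miR-107 below) were measured in mouse sciatic nerves in which Dicer had been deleted from Schwann cells. Both were chosen by name, as miRNAs known to act on Dicer, and every probe carrying either name was used. They were 2 of 650 miRNA names on the array, read by 4 of 1857 probes and 40 of 13000 spots. The mice carried a floxed Dicer1 allele (strain Dicer1tm1Bdh/J). Mutants were Dicer1 fl/fl Dhh-Cre pos (fl) and controls were Dicer1 wt/fl Dhh-Cre pos (wt), taken on embryonic day 17 (E17) or 4 days after birth (P4), and each of the groups wt-E17, fl-E17, wt-P4 and fl-P4 had 4 arrays. The controls thus carried the Cre transgene too, with 1 floxed allele. The Dhh promoter drives Cre in the Schwann cell lineage, so the study expects neurons and other cells of the nerve to keep their Dicer. Per the study's methods the mice were littermates, each analysed on its own array.

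Dicer cuts the mature miRNA out of its hairpin precursor, and the mature strand then guides repression of mRNAs that pair with its seed (bases 2 to 8). miR-103 and miR-107 are known for pairing with the Dicer mRNA itself, so that the miRNA and the enzyme that makes it form a feedback loop. They have been linked to insulin signalling and to cell motility in other tissues. Their genes lie in introns of the Pank genes, which encode pantothenate kinases, the first enzymes of coenzyme A synthesis. Dicer mRNA was not measured on these arrays. The study measured it by quantitative RT-PCR in nerves of the same ages and genotypes. It reports lower Dicer mRNA in mutants at both ages, and in controls more at P4 than at E17.

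The mature sequences are shown because they set what the probes can tell apart. In capitals is the seed, and the sequences are those of RefSeq (GRCm38.p6), matched by name for both members.
miR-103: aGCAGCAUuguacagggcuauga
miR-107: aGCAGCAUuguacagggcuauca
The pair was alike at 22 of 23 bases, and the substitution from miR-103 to miR-107 was G22C, counted from the 5′ end. No other mature miRNA among 1679 in the table had this seed. The next most similar sequence, miR-1906, matched miR-103 at 14 positions. Each miRNA had a brighter and a dimmer probe, and how much miR-107 binds the miR-103 probes, and the reverse, was not tested. A like movement of both is therefore no evidence that both moved.

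In RefSeq GRCm38.p6, miR-103 has 2 gene copies. Mir103-1 lies at chr11:35782396-35782481 on the plus strand, within the span of Pank3. Mir103-2 lies at chr2:131288052-131288137 on the plus strand, within the span of Pank2. Mir107 lies at chr19:34820687-34820773 on the minus strand, within the span of Pank1. The copies of miR-103 give the same mature sequence and could not be told apart.

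Both miRNAs were detected on all 16 arrays, and every one of their spots was well above background on each array and none was saturated. Between 197 and 260 miRNAs were detected per array, and arrays of 1 group correlated at r between 0.962 and 0.998. Both genotypes of an age shared a slide and a scan, so genotypes were compared within a slide, while age and slide cannot be told apart. Levels are given as log2 of the quantile-normalized median spot signal. Calls needed a limma adjusted p no higher than 0.05 (Benjamini-Hochberg over the 681 probes of 281 expressed miRNAs) and a log2 difference of 0.5 or more in size. Each probe is printed as 10 spots, whose median SD within an array was between 0.07 and 0.09 on the log2 scale for the 4 probes.

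At E17, before myelination begins, both miRNAs were lower in mutant than in control nerves. On its brighter probe, miR-103 read 9.52, 9.60, 9.62 and 9.42 in the 4 wt-E17 nerves and 9.16, 9.07, 8.98 and 9.04 in the 4 fl-E17 nerves. The highest mutant lay below the lowest control. The level was 9.54 ± 0.09 (SD, n = 4) in controls and 9.06 ± 0.07 in mutants, a log2 difference of -0.48 (SE 0.09, 95% interval -0.67 to -0.29, limma adjusted p = 0.0045), or 71.8% of control.

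miR-107 read 8.73, 8.62, 8.60 and 8.74 on its brighter probe in wt-E17 and 8.43, 8.42, 8.42 and 8.42 in fl-E17. The groups did not overlap here either, and the mutant values lay between 8.42 and 8.43. The level was 8.67 ± 0.07 (SD, n = 4) in controls and 8.42 ± 0.004 in mutants, a log2 difference of -0.25 (SE 0.07, 95% interval -0.39 to -0.11, limma adjusted p = 0.0293), or 84.1% of control. The narrow spread in mutants holds only after normalization. Without it the SD of this probe was 0.30 in wt-E17 and 0.20 in fl-E17, and the groups overlapped.

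The dimmer probes gave the same direction at E17. That of miR-103 was 7.38 ± 0.14 (SD, n = 4) in controls and 6.99 ± 0.04 in mutants, which is -0.39 on the log2 scale (limma adjusted p = 0.00183). The dimmer probe of miR-107 was 7.25 ± 0.05 (SD, n = 4) in controls and 6.99 ± 0.04 in mutants, a log2 difference of -0.26 (limma adjusted p = 0.00478). None of the 4 probes reached the log2 limit of 0.5, so 0 of 4 were called, against 1.32% of all probes called lower. By the adjusted p alone 4 of 4 were lower, against 5.43% of all probes, and 4 of 4 had groups that did not overlap with mutants lower, against 12.2%. The 4 probes share targets and are not independent of each other. The adjusted p of miR-107 at E17 was close to its limit: it lay between 0.0513 and 0.0963 on leaving out any 1 of 7 of the 8 E17 arrays (all but wt-E17 replicate 3), and with no filter on absent miRNAs it was 0.0614. Scaling mattered for the other probes too. Without normalization between arrays 0 of 4 probes passed the adjusted p at E17 (0.100 and 0.323 for the brighter and dimmer probe of miR-103, 0.238 and 0.614 for those of miR-107). With each array scaled to its 75th percentile 1 of 4 passed, the brighter miR-103 probe at an adjusted p of 0.0139, and the differences of the dimmer probes shrank to -0.20 for miR-103 and -0.094 for miR-107. The share of signal, given below, separated the genotypes, but it is itself a scaling, by the summed signal of the array.

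At P4, when controls myelinate, both were again lower in mutants. miR-103 read 9.71, 9.51, 9.44 and 9.52 on its brighter probe in wt-P4 and 9.23, 9.29, 8.88 and 9.31 in fl-P4. All mutants lay below all controls, with fl-P4 replicate 3 the lowest. The level was 9.54 ± 0.11 (SD, n = 4) in controls and 9.18 ± 0.20 in mutants, a log2 difference of -0.37 (SE 0.09, 95% interval -0.55 to -0.18, limma adjusted p = 0.00326), or 77.6% of control.

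miR-107 read 8.94, 8.82, 8.65 and 8.87 on its brighter probe in wt-P4 and 8.43, 8.43, 8.15 and 8.36 in fl-P4. The groups did not overlap, and fl-P4 replicate 3 was again the lowest. The level was 8.82 ± 0.12 (SD, n = 4) in controls and 8.34 ± 0.13 in mutants, a log2 difference of -0.48 (SE 0.07, 95% interval -0.62 to -0.33, limma adjusted p = 5.57e-05), or 71.8% of control.

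**Figure D1:**
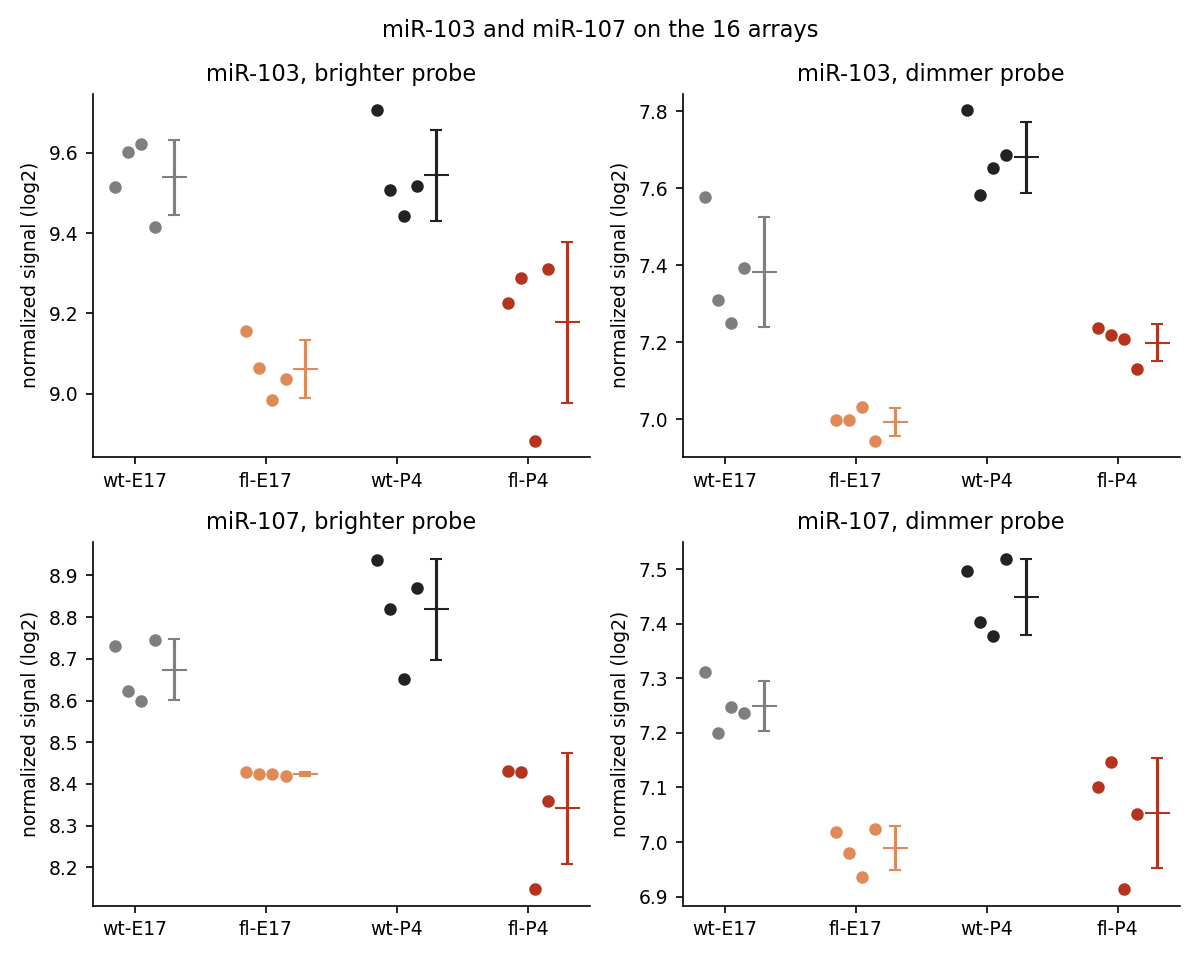
Quantile-normalized log2 signal of the brighter and the dimmer probe of miR-103 and miR-107 on each of the 16 arrays, by group, with the mean and SD of 4 arrays beside the points. At both ages every mutant array (fl) lies below every control array (wt) on all 4 probes, and the vertical axes do not start at 0.

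On the dimmer probes the log2 difference at P4 was -0.48 for miR-103 (limma adjusted p = 2.73e-05) and -0.40 for miR-107 (limma adjusted p = 1.64e-05). The mean of the dimmer miR-103 probe was 7.68 ± 0.09 (SD, n = 4) in controls and 7.20 ± 0.05 in mutants. Again 0 of 4 probes were called, against 7.93% of all probes called lower. By the adjusted p alone 4 of 4 were lower, against 22% of all probes, and 4 of 4 had groups that did not overlap with mutants lower, against 20%. By size, the brighter miR-107 probe ranked 62 from the lowest of 681 differences and the brighter miR-103 probe ranked 87. At E17 miR-103 ranked 26 and miR-107 ranked 64. With each array scaled to its 75th percentile in place of quantile normalization both were called at P4, at -0.71 for miR-103 and -0.61 for miR-107, while the median of all probes moved to 0.56. In whole nerve, fewer cells of a type and less RNA per cell cannot be told apart.

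**Figure D2:**
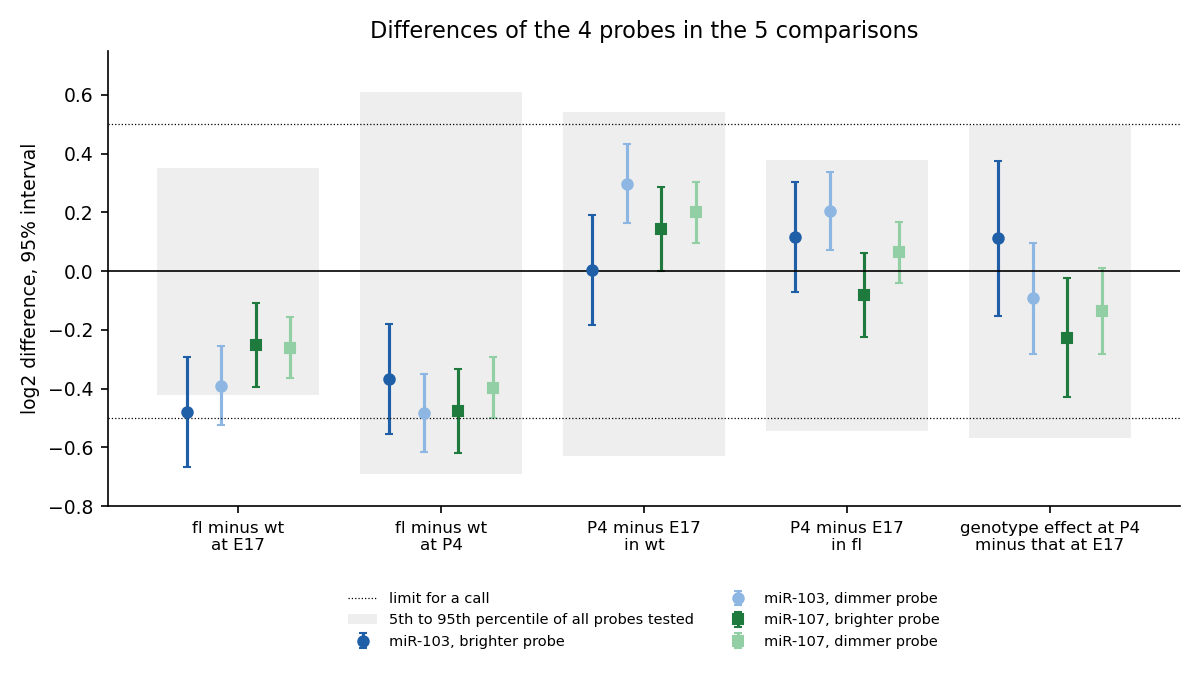
Log2 differences with their 95% intervals (limma) for the 4 probes in the 5 comparisons, over grey bars that span the 5th to the 95th percentile of all 681 probes. All 4 intervals lie below 0 in both genotype comparisons, and every estimate lies inside the dotted limits of 0.5 set for a call.

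Quantile normalization gives each array the same distribution and removes a shift common to all miRNAs, so the background-subtracted gene signals were compared as well. Each labelling had started from the same mass of total RNA. The summed signal of all miRNAs in fl-P4 was 51.3% of that in wt-P4 (exact two-sided permutation test, p = 0.0286, the smallest that 70 assignments allow). In fl-E17 it was 88.7% of that in wt-E17 (exact permutation p = 0.400), and those groups overlapped.

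The gene signal of miR-103 was 377, 361, 268 and 424 in wt-E17 and 209, 261, 228 and 207 in fl-E17. The groups did not overlap, by a narrow margin between wt-E17 replicate 3 and fl-E17 replicate 2. Mutants were at 63.8% of controls, a log2 difference of -0.65 (exact permutation p = 0.0286, n = 4 per group). Leaving out any 1 of the mutant arrays gave an exact permutation p of 0.0571.

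At P4 the gap in the gene signal of miR-103 was wider. It was 1139.8, 1156, 1213 and 956 in wt-P4 and 369, 486, 346 and 409 in fl-P4, with no overlap. Mutants were at 35.9% of controls, a log2 difference of -1.48 (exact permutation p = 0.0286, n = 4 per group). miR-107 followed the same pattern, with 593, 693, 604 and 553 in wt-P4 and 215, 283, 191 and 226 in fl-P4. Mutants were at 37.2% of controls, a log2 difference of -1.43 (exact permutation p = 0.0286, n = 4 per group). Both differences at P4 were thus larger than that of the summed signal.

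At E17 the gene signal of miR-107 was 223, 206, 152.4 and 265 in wt-E17 and 129, 174, 152.4 and 136 in fl-E17. Here the groups overlapped, since wt-E17 replicate 3 lay among the mutants. That array also had the lowest summed signal of the 16, at 36495. Mutants were at 70.8% of controls (log2 difference -0.50, exact permutation p = 0.0571, n = 4 per group), and without wt-E17 replicate 3 the difference was -0.65 (exact permutation p = 0.0286).

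As a share of the summed signal of its array, each miRNA separated the genotypes at both ages. The spread within a group was widest for miR-103 in wt-P4, with an SD of 0.14 on the log2 scale. In the other groups of either miRNA that SD was 0.015 to 0.050. How often other miRNAs separate in the share, or in the gene signals above, was not determined. In normalized signals 12.2% of all probes did so at E17 and 20% at P4, with mutants lower. miR-103 made up 0.703% to 0.743% of the summed signal in wt-E17 and 0.514% to 0.531% in fl-E17, and its share in mutants was 72.0% of that in controls. At P4 it made up 0.751% to 0.919% in wt-P4 and 0.566% to 0.609% in fl-P4, and the share in mutants was 70.01% of that in controls. Each of these differences had an exact permutation p of 0.0286 (n = 4 per group).

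For miR-107 the share was 0.413% to 0.439% in wt-E17 and 0.328% to 0.348% in fl-E17, or 79.8% of control. It was 0.450% to 0.459% in wt-P4 and 0.313% to 0.338% in fl-P4, or 72.5% of control. Each had an exact permutation p of 0.0286 (n = 4 per group). The separation at E17, absent in the gene signal because of wt-E17 replicate 3, was complete in the share.

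**Figure D3:**
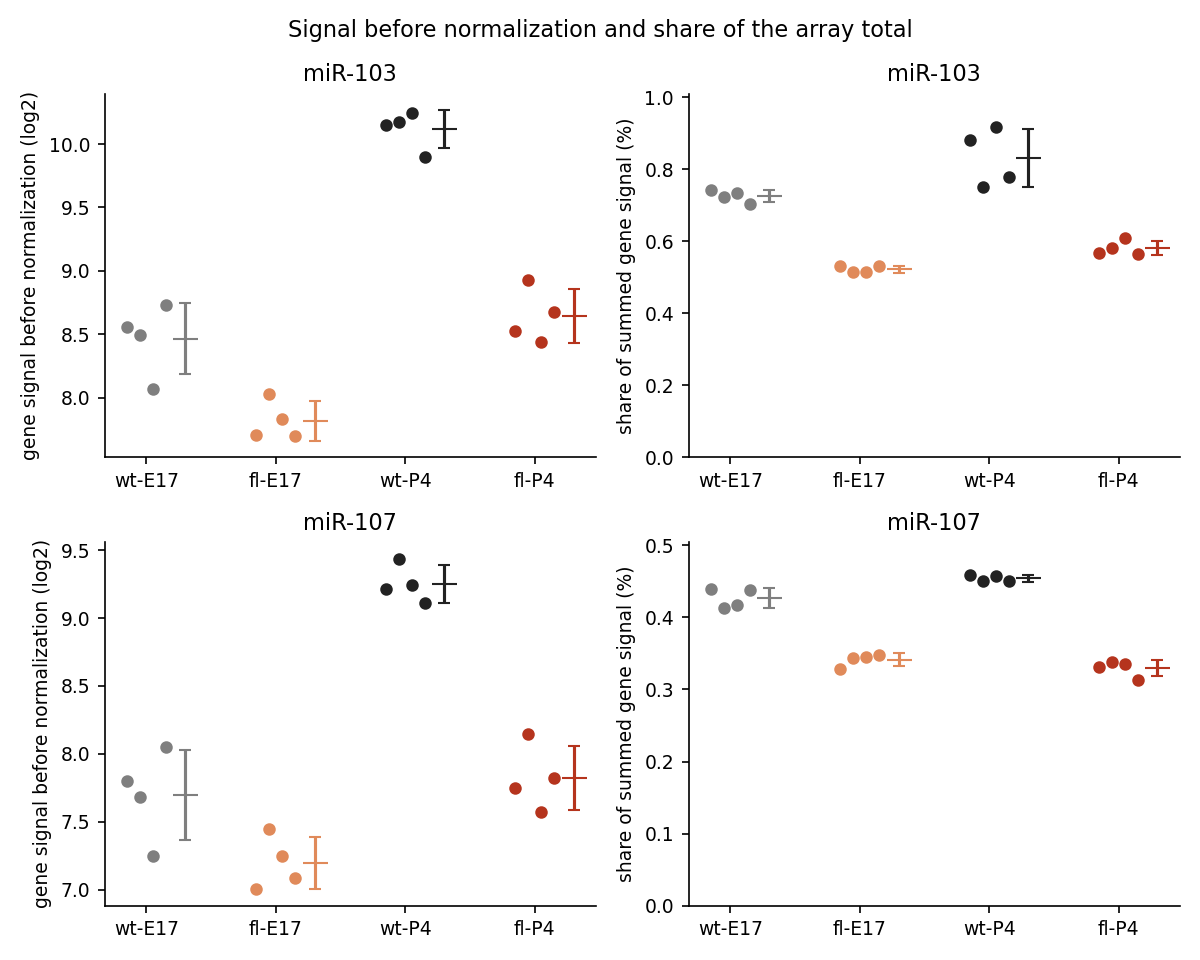
Left, log2 background-subtracted gene signal of miR-103 and miR-107 on each array before any normalization. Right, the same signal as a percentage of the summed signal of all miRNAs on that array, on axes from 0. Points are arrays and bars are the mean and SD of 4 arrays. The shares of mutant arrays (fl) lie below those of control arrays (wt) at both ages, with no overlap. How often the shares of other miRNAs separate in this way was not determined.

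Between E17 and P4 the normalized level of neither miRNA moved past the limits, and 0 of 4 probes were called in controls, where 12.8% of all probes were called in either direction. The brighter probe of miR-103 differed by 0.01 in controls (95% interval -0.18 to 0.19, limma adjusted p = 0.966), and its groups overlapped. That of miR-107 differed by 0.14 (95% interval 0.00 to 0.29, limma adjusted p = 0.104). The dimmer probes were higher at P4 by the adjusted p, by 0.30 for miR-103 (limma adjusted p = 0.00172) and by 0.20 for miR-107 (limma adjusted p = 0.00502), where 22.3% of all probes were. The 2 probes of miR-103 thus disagreed on age.

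In mutants 0 of 4 probes were called between the ages, where 7.05% of all probes were. The brighter probe of miR-103 differed by 0.12 (95% interval -0.07 to 0.30, limma adjusted p = 0.375) and that of miR-107 by -0.08 (95% interval -0.23 to 0.06, limma adjusted p = 0.422). By the adjusted p alone 1 of 4 was higher, the dimmer miR-103 probe at 0.21 (limma adjusted p = 0.0251), against 14.8% of all probes. On the brighter probe the order of the normalized levels of miR-103 therefore put both control groups above both mutant groups, and neither the pair of control groups nor the pair of mutant groups differed beyond their spread. miR-107 had the same order of genotypes. As a share of summed signal, however, miR-103 was higher at P4 than at E17 in controls (114% of the E17 share) and in mutants (111%), with no overlap in either (exact permutation p = 0.0286 for each, n = 4 per group). The share of miR-107 was 106% in controls (exact permutation p = 0.0286) and 96.6% in mutants (exact permutation p = 0.171).

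Before normalization the picture by age was different, since the summed signal in controls was 2.76 times as high at P4 as at E17 (exact permutation p = 0.0286). In controls the gene signal of miR-103 was 3.15 times and that of miR-107 2.93 times as high at P4 as at E17 (exact permutation p = 0.0286 for each). In mutants the ratios were 1.77 for miR-103, 1.54 for miR-107 and 1.60 for the summed signal (exact permutation p = 0.0286 for each). On this scale fl-P4 lay above wt-E17 on average for both miRNAs, with overlap. Age and slide share these differences.

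The size of the genotype difference was compared between the ages by the interaction term. For miR-103 the log2 difference at P4 minus that at E17 was 0.11 (95% interval -0.15 to 0.38, limma adjusted p = 0.632), and for miR-107 it was -0.23 (95% interval -0.43 to -0.02, limma adjusted p = 0.128). Of the 4 probes 0 were called, where 6.61% of all probes were. Without normalization between arrays both were called, at -0.85 for miR-103, with its sign turned, and at -0.95 for miR-107. On that scale the summed signal of fl-P4 was also lower.

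Whether miR-103 and miR-107 moved by unequal amounts was tested by their difference within each array, miR-103 minus miR-107 on the brighter probes. It was 0.86 ± 0.16 (SD, n = 4) in wt-E17, 0.64 ± 0.07 in fl-E17, 0.72 ± 0.07 in wt-P4 and 0.84 ± 0.09 in fl-P4. The level of this difference has no meaning between probes, only its change between groups does. The 4 comparisons were adjusted together, and with 70 assignments 1 comparison alone cannot pass: the smallest exact permutation p of 0.0286 becomes 0.114. The comparison at that bound was P4 minus E17 in mutants, where the groups did not overlap and the difference was 0.20 (exact permutation p = 0.0286, adjusted p = 0.114). It was 0.20 with gene signals and 0.24 without normalization (exact permutation p = 0.0286 for each), and 0.14 with the dimmer probes (exact permutation p = 0.0857). The genotypes differed by -0.23 at E17 (exact permutation p = 0.0571, adjusted p = 0.114) and by 0.11 at P4 (exact permutation p = 0.114, adjusted p = 0.152). The sign at P4 turned with gene signals (-0.050), without normalization (-0.10) and with the dimmer probes (-0.09).

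Over the 16 arrays the brighter probes of miR-103 and miR-107 correlated at r = 0.85, and deviations from the group means at r = 0.59. The 2 probes of miR-103 correlated at r = 0.76 and those of miR-107 at r = 0.93. These are descriptions, since arrays of a group share its level. Among 274 other expressed miRNAs, those most like miR-103 were let-7f (r = 0.92), miR-324-5p (r = 0.91) and miR-676 (r = 0.89). Like miR-103, miR-324-5p and miR-676 were lower in mutants at both ages by the adjusted p without reaching the limit. Of all probes 5.43% at E17 and 22% at P4 were lower by that p. let-7f did not pass it at E17, at -0.56 (limma adjusted p = 0.0962), and was called lower at P4, at -0.55 (limma adjusted p = 0.0429). Since these miRNAs were picked by correlation over the same arrays, a like difference between genotypes follows in part from that choice. miR-676 differed by -0.46 at E17 (limma adjusted p = 0.0124) and by -0.49 at P4 (limma adjusted p = 0.00106), and miR-324-5p by -0.29 at E17 and -0.30 at P4.

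The miRNAs most like miR-107 were miR-23b (r = 0.94), miR-27b (r = 0.93) and miR-24 (r = 0.93), which share a gene cluster, miR-24 being made from a related cluster as well. At P4 their differences were larger than that of miR-107. miR-27b differed by -1.45 (limma adjusted p = 1.12e-07), miR-23b by -0.93 (limma adjusted p = 9.97e-05) and miR-24 by -0.69 (limma adjusted p = 9.02e-05). All 3 were called lower, against 7.93% of all probes. At E17 only miR-27b was called lower, at -0.51 (limma adjusted p = 0.0124), against 1.32% of all probes. These miRNAs were picked by correlation over the same arrays, genotype differences included, so their lower level in mutants follows in part from that choice.

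The seed of miR-103 and miR-107 overlaps that of the miR-15/16 family, which carries the same 7 bases shifted by 1 position (AGCAGCA, bases 1 to 7 in the pair and bases 2 to 8, in capitals, below). Members of that family are known for restraining the cell cycle. They are shown because shared letters give overlapping sets of predicted targets.
miR-15a: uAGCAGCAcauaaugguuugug
miR-16: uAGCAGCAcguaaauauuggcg
miR-195: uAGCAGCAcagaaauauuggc
miR-322: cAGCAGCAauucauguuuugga
All 6 listed members of this family (miR-15a, miR-15b, miR-16, miR-195, miR-322 and miR-497) were expressed. Counts for this and the later lists use only the brightest probe of each miRNA. The shares of all probes beside them include dimmer probes. At E17 0 of 6 were called and their median difference was -0.004, as over all 281 miRNAs, where it was -0.004. At P4 2 of 6 were called lower and none higher, against 7.93% of all probes called lower, with a median of -0.46 against 0.06 over all miRNAs. miR-15a was called at -0.81 (limma adjusted p = 0.000207), falling from 9.65 ± 0.23 (SD, n = 4) in wt-P4 to 8.83 ± 0.20 in fl-P4. miR-16 was called at -0.71 (limma adjusted p = 0.000922). By the adjusted p alone 5 of 6 were lower at P4, against 22% of all probes, and miR-322 was higher, at 0.40 (limma adjusted p = 0.0383).

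let-7, the other family described as acting on Dicer, was expressed with 9 of 9 members. Its members are known for rising with differentiation, and they are so alike that their probes may share target. At E17 its median difference was -0.56, against -0.004 over all miRNAs, and 1 of 9 was called lower, against 1.32% of all probes, let-7d at -0.78, whose limma adjusted p was 0.0197. At P4 the median was -0.32, against 0.06 over all miRNAs, and 1 of 9 was called lower, near the 7.93% of all probes, let-7f at -0.55 with an adjusted p of 0.0429, where fl-P4 had an SD of 0.56. Lower by the adjusted p alone were 2 of 9 at E17, against 5.43% of all probes, and 2 of 9 at P4, near the 22% of all probes. miR-98 was among them at both ages, at -0.37 at E17 (limma adjusted p = 0.00789) and -0.46 at P4 (limma adjusted p = 0.000207). In the other direction, let-7e differed by 0.44 at P4, with a limma adjusted p of 0.0503.

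**Figure D4:**
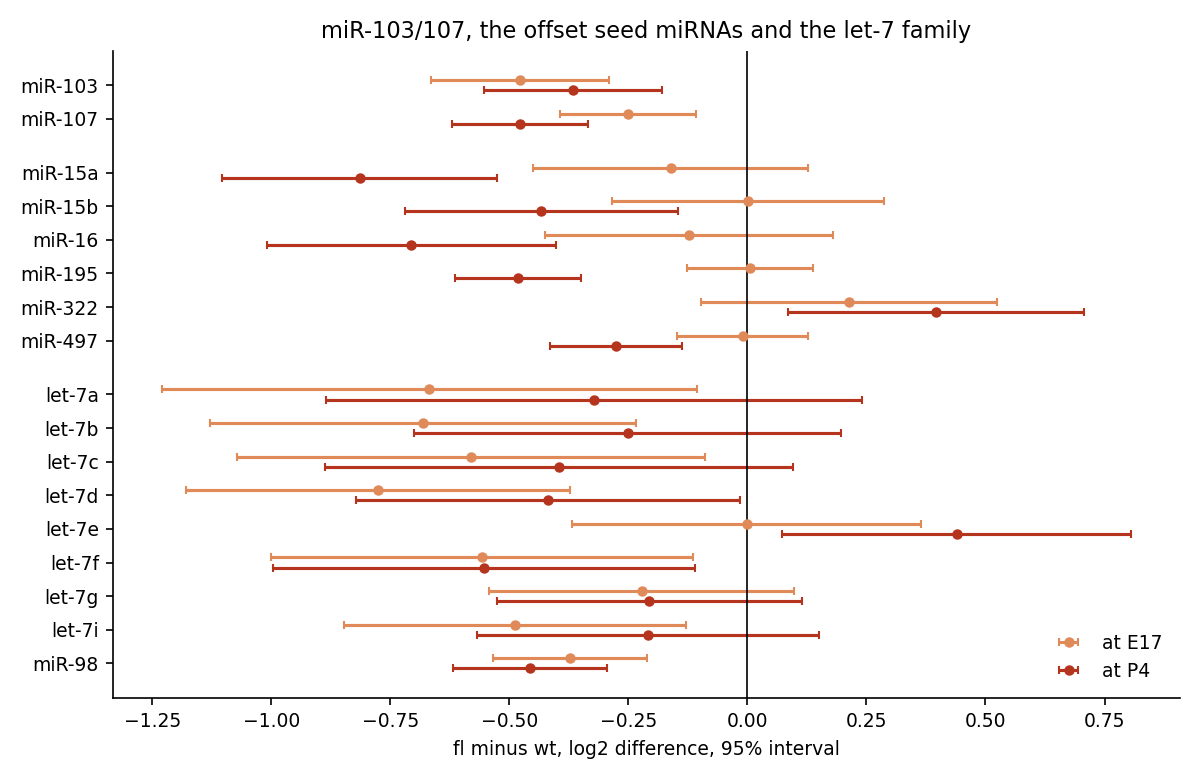
Log2 difference of mutant (fl) minus control (wt) with its 95% interval (limma) at E17 and at P4, for the brightest probe of miR-103, miR-107, the 6 miRNAs of the offset seed and the 9 of the let-7 family. The intervals of miR-103 and miR-107 lie below 0 at both ages. Of the offset seed miRNAs 5 of 6 lie below 0 at P4, and at E17 all 6 intervals span 0.

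Of the cell type marker lists, only that of Schwann cells had a median below 0 at P4, as the members did. The medians of the other lists lay between 0.17 (erythroid) and 0.94 (fibroblast and smooth muscle). Both Schwann cell markers were called lower at P4, against 7.93% of all probes, miR-338-3p at -2.85 (limma adjusted p = 9.29e-08) and miR-204 at -2.04. The study had already listed both as reduced in mutants at P4 on these same arrays, so their calls here are not independent evidence. Their summed gene signal was 4793 to 5523 in wt-P4 and 222 to 451 in fl-P4. At E17 neither marker was called, where 1.32% of all probes were called lower. There miR-338-3p differed by -0.57 (limma adjusted p = 0.0925), with marker sums of 511 to 1113 in wt-E17 and 469.6 to 664 in fl-E17. At E17 miR-103 and miR-107 passed the adjusted p and the Schwann cell markers did not. The difference of miR-338-3p was larger in size than theirs, with a wider spread (SE 0.21, against 0.09 and 0.07). That of miR-204 was -0.21. Whether members and markers differed by unequal amounts was not tested.

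Of the fibroblast and smooth muscle markers 3 of 4 expressed were called higher at P4 (miR-199a-5p, miR-214 and miR-199a-3p), against 6.61% of all probes, and miR-145 was not detected on any array. Their summed signal was 4139 to 5658 in wt-P4 and 4020.0 to 7293 in fl-P4. At E17 miR-199a-5p was called higher, against 1.47% of all probes, with sums of 1781 to 3368 in wt-E17 and 2941 to 3539 in fl-E17. Of the endothelial markers miR-126-3p was called higher at P4, 1 of 2, against 6.61% of all probes, and neither was called at E17. The endothelial sums were 1138 to 2381 in wt-P4 and 927 to 1512 in fl-P4. For both lists the sums at P4, taken before normalization, overlapped between genotypes, and the endothelial range lay lower in mutants.

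Of the blood cell markers miR-223 was called higher at P4 and miR-142-3p at E17, each 1 of 3 expressed leukocyte markers, against 6.61% of all probes at P4 and 1.47% at E17, with miR-150 and miR-142-5p not detected. The leukocyte sums were 228 to 342 in wt-P4, 279.9 to 417 in fl-P4, 87.0 to 177 in wt-E17 and 138 to 187 in fl-E17. The erythroid markers miR-451 at P4 and miR-486 at E17 were called higher, 1 of 3 each, against the same 6.61% and 1.47%, with sums of 205 to 1746 in wt-P4, 453 to 1218 in fl-P4, 788 to 3283 in wt-E17 and 2103 to 4787 in fl-E17, and miR-144 was not detected at P4. Of the skeletal muscle markers 0 of 4 were called at either age, against 6.61% of all probes called higher at P4 and 1.47% at E17. At P4 the differences of all 4 were above the limit in size, at 0.56 to 0.95 (median 0.70), but 0 of 4 passed the adjusted p. The muscle sums were 259 to 572 in wt-P4, 198 to 988 in fl-P4, 203 to 833 in wt-E17 and 203 to 857 in fl-E17. Of the neuronal markers miR-9 was called lower at P4, 1 of 4, against 7.93% of all probes, and was not detected in fl-P4, with sums of 168 to 189 in wt-P4, 80.9 to 124 in fl-P4, 66.5 to 157 in wt-E17 and 73.4 to 113 in fl-E17. Of the other neuronal markers miR-124 differed by 0.31 and miR-132 by 0.28 at P4, higher by the limma adjusted p without reaching the limit, as 21.7% of all probes were higher by that p, and the list's median was 0.19. The part of these cell types in the differences of miR-103 and miR-107 was not tested.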

How the data were processed

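Sciatic nerve RNA from 16 mice was labelled with Cy3 and hybridised to Agilent mouse miRNA arrays, 1 array per mouse. The deposited files hold the scanner's spot intensities and background-subtracted gene signals, made by the authors with Agilent Feature Extraction 10.5.1.1, and a table of the authors' normalized intensities, used as an alternative. Following the study's methods, median spot signals were log2-transformed and quantile normalized. The normalization was run here over the 13000 spots that are not controls, and spots were then averaged per probe without flagged outlier spots. A miRNA was kept if some group had it detected on 0.5 or more of its arrays. limma 3.58.1 (R 4.3.3) was fitted on group means over all 16 arrays and tested on simulated data, in place of the methods' t-test, itself an alternative. A miRNA is represented by its brightest probe unless stated. Single values were tested by exact two-sided permutation over arrays. Named miRNAs are the members, the 3 most correlated with each, and up to 4 called at P4 from each list. Members, lists and limits were chosen with earlier results of these data known. Alternatives covered signal, background correction, scaling, filter, limits, test, replicate block and single arrays left out. For normexp the median signal took the place of the mean signal. Sequences came from RefSeq (GRCm38.p6). On arrays, 4 per group limit the precision.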

Additional observations from a re-analysis of the deposited data

How the results depend on the processing

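Both miRNAs stayed lower in mutants than in controls at both ages under every alternative run, single arrays left out included. Whether the log2 limit of 0.5 was met changed, and at E17 so did the adjusted p, which was 0.0791 for miR-103 (at -0.53) and 0.213 for miR-107 with processed, quantile-normalized signals. At P4 both were called without normalization between arrays (miR-103 -1.36, miR-107 -1.26), with scaling to the 75th percentile (-0.71 and -0.61) and with processed signals so scaled (-0.68 and -0.64), miR-107 also with processed signals and quantile normalization (-0.61). With no limit on the difference both were called at P4 (-0.37 and -0.48) and E17 (-0.48 and -0.25). miR-103 was called at E17 with the 75th percentile (-0.50) and in the authors' intensities (-0.52). Scaling to the 75th percentile moved the median of all probes by 0.56 at P4, against which miR-103 lay at -1.27 and miR-107 at -1.17.

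By age, controls were called without normalization (1.57 and 1.43) and miR-103 with the 75th percentile (0.51). In mutants miR-103 was called without normalization (0.72), and miR-107 turned to 0.48 there, 0.067 with the 75th percentile, 0.057 with processed signals so scaled and 0.038 in the authors' intensities. miR-103 in controls turned to -0.038 with processed, quantile-normalized signals. With the 75th percentile the dimmer probes in mutants turned to -0.035 (miR-103) and -0.16 (miR-107). The interaction of miR-103 turned to -0.85, -0.21 and -0.18 without normalization, with the 75th percentile and with processed signals so scaled, and that of miR-107 was called at -0.95 without normalization. The cause of these changes was not tested.

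Within arrays, miR-103 minus miR-107 turned at P4 to -0.050 with gene signals, -0.10 without normalization and -0.086 with the dimmer probes (chosen after seeing the data), and by age in controls to 0.10, 0.14 and 0.10. The E17 gene signal of miR-107 passed its test as a share (-0.33).

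Leaving out 1 array gave -0.41 to -0.27 (miR-103) and -0.53 to -0.41 (miR-107) at P4, with miR-107 called without wt-P4 replicate 3, fl-P4 replicate 1 or fl-P4 replicate 2. It gave -0.52 to -0.45 and -0.28 to -0.23 at E17, with miR-103 called without wt-E17 replicate 4 or fl-E17 replicate 1, -0.049 to 0.039 for miR-103 by age in controls, and -0.78 to -0.56 (miR-103) and -0.65 to -0.38 (miR-107) for the E17 gene signals.

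The number of probes called ranged from 21 (limit of 1) to 464 (75th percentile) around 99 at P4, from 0 (limit of 1) to 70 (no limit) around 19 at E17, from 19 to 481 around 87 by age in controls, from 11 to 193 around 48 by age in mutants and from 12 to 157 around 45 for the interaction. The share of calls that were higher at P4 was 45.5%, but 86.2% with the 75th percentile and 0.637% without normalization. Same-numbered mutant and control arrays correlated between -0.52 and 0.46 in their deviations, so the numbers were not taken as pairs, and the labels do not say that they mark litters. With the replicate block 98 and 23 probes were called at P4 and E17, and no call on miR-103 or miR-107 changed. The interaction of miR-107 then had an adjusted p of 0.0230 at -0.23.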
